A study of Mus musculus with 6 samples.

Results

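The genes described here are the exchange factors that switch RAS on and the GTPase activating proteins (GAPs) that switch it off: Rasgrp1, Rasgrp2, Rasgrp3, Rasgrp4, Sos1, Sos2, Rasa1, Rasa2, Rasa3 and Nf1. These 10 genes, of 33924 in the count table, were chosen by function, with earlier results of these data known. RNA sequencing covered 6 libraries, 2 each from mouse leukemia 92, mouse leukemia 1 and wild-type pro-B cells. Both leukemias have the genotype Mll-Af4/N-RasG12D, and the study asked how such a leukemia differs from its normal counterpart. For the model, marrow of Mll-Af4 mice aged 6 to 8 weeks was depleted of lineage-positive cells and sorted for c-Kit and Sca1, kept overnight in lymphoid culture with interleukin 7 and other cytokines, and transduced with an MSCV retrovirus carrying Cre and TdTomato. Tomato-positive cells then received a retroviral vector with N-RasG12D, and 250000 of them were injected into lethally irradiated mice (900 rads) with 200000 wild-type helper marrow cells. Primary leukemia cells were taken from the bone marrow, a tissue that can also hold cells of the recipient and of the helper graft. The pro-B cells came from wild-type bone marrow, sorted as B220+, CD43+ and IgM-, and their labels give no age.

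RAS proteins are molecular switches that signal to the RAF, MEK and ERK kinases while bound to GTP. Exchange factors release GDP so that GTP can bind: SOS proteins are brought to receptors by the adaptor GRB2, and RASGRP proteins are called to membranes by diacylglycerol and calcium downstream of antigen receptors. GAPs speed up the slow GTP hydrolysis of RAS, and neurofibromin, the product of Nf1, is a tumour suppressor that works in this way. RAS proteins with the G12D change respond poorly to GAPs, while the normal RAS proteins of the same cell stay under the control of both classes.

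The libraries held 22153444 to 27444759 gene counts, and 3 counts corresponded to 0.111 to 0.14 CPM (counts relative to the TMM-scaled library size). The SD of log2 differences between the libraries of a pair was 0.253 in leukemia 92, 1.04 in leukemia 1 and 0.249 in pro-B cells. Leukemia 1 replicate 2 stood apart from replicate 1: its 12 granulocyte markers summed to 16200 against 178 CPM, with 782 and 445 CPM in leukemia 92 and 421 and 446 CPM in pro-B cells. It was also lower in genes with long transcripts, with a median log2 difference of -0.35 from replicate 1 over 1901 genes with more than 6 kb of exon and 0.25 over 3918 genes with up to 2 kb. The 14 pro-B markers summed to 5610 to 6690 CPM in leukemia and 6550 and 5630 CPM in pro-B cells. They were mixed: in all 4 leukemia libraries 5 were below both pro-B libraries and 4 were above both. Pax5, Cd79a, Cd79b and Vpreb1 were the higher ones, and Rag1, Rag2, Dntt, Il7r and Spn the lower ones. Dntt, the terminal transferase, was at 0.0411 and 0 CPM in leukemia 92 and 0.244 and 1.11 CPM in leukemia 1, against 969 and 604 CPM in pro-B cells. Nothing in the labels says whether the libraries of a group came from separate animals, so p-values may measure technical spread only.

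In leukemia, taken as 2 leukemias with their libraries summed against 2 pro-B libraries, the exchange factor Rasgrp1 fell, Rasgrp2 and Rasgrp4 rose, and the other 7 genes did not pass the test. Calls rest on edgeR's quasi-likelihood test with p values adjusted over all genes (Benjamini-Hochberg, threshold 0.05), by which 20.2% of 15280 tested genes were called, 9.54% higher and 10.7% lower. At 3 of 10, the share of members called was not far from that of all genes. The median log2 change of the members was 0.14, against 0.02 over all genes tested. All 10 members passed the filter on low counts in each comparison. In 4 of the 10 the leukemia libraries did not overlap the pro-B libraries, 2 higher and 2 lower, against 50.7% of 14979 genes (24% higher and 26.7% lower). In bulk samples fewer cells of a type and less RNA per cell cannot be told apart, which holds for each change below.

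**Figure D1:**
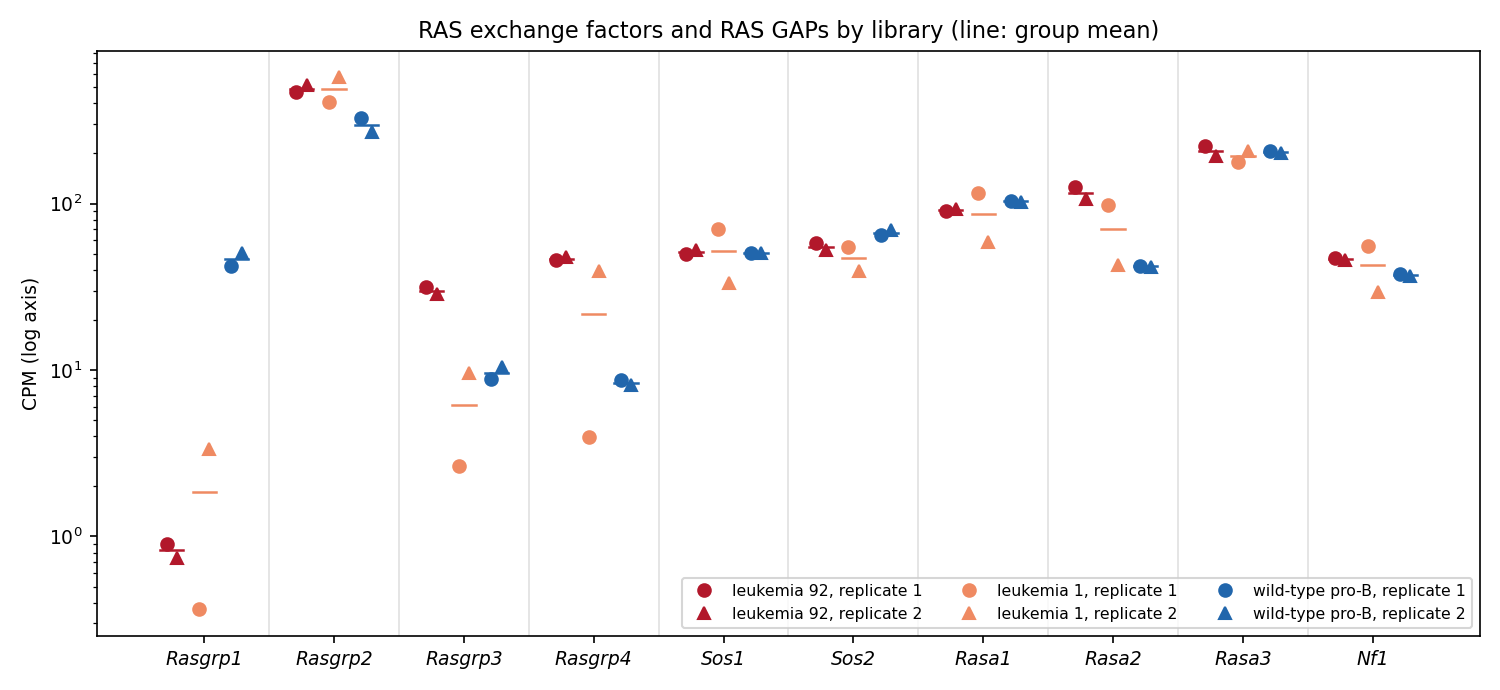
CPM of the 10 genes in each library on a log axis, with leukemia 92, leukemia 1 and wild-type pro-B libraries from left to right for each gene, circles for replicate 1, triangles for replicate 2 and short lines at the group means. Rasgrp1 lies between 0.366 and 3.36 CPM in leukemia and at 42.1 and 50.6 CPM in pro-B cells, while Rasa3 lies between 178 and 222 CPM in all groups.

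Rasgrp1, a diacylglycerol-driven RAS exchange factor best known from developing T cells, was nearly lost in both leukemias. It stood at 0.904 and 0.747 CPM in leukemia 92 and 0.366 and 3.36 CPM in leukemia 1, against 42.1 and 50.6 CPM in pro-B cells. These values come from 9 to 91 reads per leukemia library and 1137 and 1297 reads in the pro-B libraries. All 4 leukemia libraries lay far below both pro-B libraries, and the highest of them was leukemia 1 replicate 2. Rasgrp1 averaged 1.34 ± 1.36 CPM over 4 leukemia libraries and 46.3 ± 5.99 CPM over 2 pro-B libraries (± SD), with a log2 change of -5.06 (SE 0.48, edgeR adjusted p = 0.015), and was 33.4-fold lower. The log2 change was -5.80 for leukemia 92 and -4.62 for leukemia 1, each against the same pro-B libraries (SE 1.07 and 0.99, edgeR adjusted p = 0.018 and 0.036). Here and below, results for 1 leukemia alone come from 1 fit of all 6 libraries with a shared spread. Their SEs and p-values thus also carry the spread of the leukemia 1 pair.

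The fall of Rasgrp1 kept its direction whichever library was left out, with log2 changes of -6.20 to -4.48 for leukemia as a whole. It lost its call without pro-B replicate 1 or 2 (edgeR adjusted p = 0.13 for each), settings in which edgeR called 0 of all genes, with 2645 and 2650 at an unadjusted p under 0.05. In leukemia 92 alone it lost its call without either library of leukemia 92 or of pro-B cells (edgeR adjusted p of 0.10 to 0.14). In leukemia 1 alone it did so without either library of leukemia 92 or of pro-B cells (0.11 to 0.20) and with the replicate block (0.059). Markers of other cell types moved with it. The 9 NK cell markers summed to 9 and 6.54 CPM in leukemia 92 and 3.98 and 33.8 CPM in leukemia 1, against 440 and 418 CPM in pro-B cells. Among the defining ones Ncr1 was at 0 in 3 leukemia libraries and at 63.8 and 59.6 CPM in the pro-B libraries. All 9 were below both pro-B libraries in all 4 leukemia libraries. The 8 plasmacytoid dendritic cell markers summed to 1570 and 1510 CPM in leukemia 92 and 1690 and 1070 CPM in leukemia 1, against 3890 and 4390 CPM in pro-B cells, and 6 of the 8 were lower in this sense, among them Siglech (15 to 33.9 CPM in leukemia, against 1370 and 1540 CPM in pro-B cells). The 8 erythroid markers summed to 1.23 to 3.8 CPM in leukemia, against 66.1 and 152 CPM in pro-B cells, with 7 of the 8 lower. The 12 T cell markers were mixed. Their sum was 46.4 to 67.4 CPM in leukemia, against 176 and 178 CPM in pro-B cells, with 7 of the 12 lower, led by Cd4 (0.122 to 6.72 CPM, against 70.4 and 70.2 CPM), and Cd5 and Cd6 higher in all 4 leukemia libraries. Cd3e was at 0 and 0.0467 CPM in leukemia 92 and 0.325 and 3.84 CPM in leukemia 1, against 2.67 and 1.91 CPM in pro-B cells. The part of these markers in the Rasgrp1 result was not tested. Leukemia 1 replicate 2, the leukemia library with the most Rasgrp1, also had the highest NK and T cell sums of the leukemia libraries.

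Among 12525 other genes the 3 nearest to Rasgrp1 in pattern, by the distance between centred log2(CPM + 0.5) values over the 6 libraries, were As3mt (distance 0.52), Chd3 (0.549) and Lag3 (0.597). As3mt, an arsenic methyltransferase, ran from 0.284 to 4.43 CPM in leukemia, against 46.1 and 42.3 CPM in pro-B cells. Chd3, a chromatin remodeller, ran from 2.07 to 14.2 CPM, against 201 and 207 CPM. Lag3, an inhibitory receptor of lymphocytes, ran from 0.284 to 3.51 CPM, against 32.1 and 36.3 CPM. All 3 share with Rasgrp1 a high value in leukemia 1 replicate 2 within the leukemia libraries, a likeness that the choice by pattern builds in.

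The promoters of Rasgrp1 and Rasgrp2 are shown because these genes moved in opposite directions with no overlap between leukemia and pro-B libraries. Each sequence is the 250 bases before a transcription start, 5′ to 3′ on the gene's strand, from RefSeq on GRCm38.p6, which differs from the build named for the counts. Of the 10 genes, 9 had an entry in the RefSeq promoter table, and Rasgrp2 had 2 starts. Rasgrp1 lies at chr2:117342878-117343127 on the minus strand, and Rasgrp2 at chr19:6399625-6399874 and chr19:6401455-6401704 on the plus strand. Capitals mark matches, on either strand, to the ETS core CCGGAA, the RUNX core TGTGGT, the E-box CAGGTG or the AP-1 site TGANTCA, and no matches overlapped.
Rasgrp1: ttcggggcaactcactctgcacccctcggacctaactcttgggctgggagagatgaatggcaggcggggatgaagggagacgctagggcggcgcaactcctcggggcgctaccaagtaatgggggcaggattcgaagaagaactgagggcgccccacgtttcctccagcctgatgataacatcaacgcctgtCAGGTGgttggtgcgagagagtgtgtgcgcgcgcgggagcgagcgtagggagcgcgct
Rasgrp2 start 1: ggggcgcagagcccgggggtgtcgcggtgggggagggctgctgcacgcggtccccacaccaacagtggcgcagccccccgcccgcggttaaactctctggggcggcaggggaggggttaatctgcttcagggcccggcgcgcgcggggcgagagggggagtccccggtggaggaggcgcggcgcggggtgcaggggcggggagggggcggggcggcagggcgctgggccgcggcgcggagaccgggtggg
Rasgrp2 start 2: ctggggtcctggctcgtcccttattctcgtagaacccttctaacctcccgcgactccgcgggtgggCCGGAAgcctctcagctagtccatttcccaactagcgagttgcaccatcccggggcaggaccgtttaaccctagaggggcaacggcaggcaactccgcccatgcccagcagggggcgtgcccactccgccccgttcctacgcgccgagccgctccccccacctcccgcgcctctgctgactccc
The Rasgrp1 window held 1 match, to the E-box, and the second Rasgrp2 window 1 match, to the ETS core. Over 32851 promoter windows of the same length, 12% held CCGGAA, 14% held TGTGGT, 17.2% held CAGGTG and 6.75% held TGANTCA. A match is a description of the letters and not a site of binding.

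Rasgrp2, whose product acts mainly on the RAS relative RAP1 and is best known from platelets and neutrophils, was the most abundant RASGRP transcript in every library. It stood at 466 and 516 CPM in leukemia 92 and 405 and 573 CPM in leukemia 1, against 326 and 269 CPM in pro-B cells. All 4 leukemia libraries lay above both pro-B libraries, and the leukemias overlapped each other. Rasgrp2 averaged 490 ± 71.5 CPM over 4 leukemia libraries and 297 ± 40.3 CPM over 2 pro-B libraries (± SD), with a log2 change of 0.73 (SE 0.15, edgeR adjusted p = 0.042). The call was lost without leukemia 1 replicate 1 or 2 (edgeR adjusted p = 0.056 and 0.13), without pro-B replicate 1 or 2 (0.29 and 0.44), and in the fit with replicate numbers as a block (0.08). The change was 0.72 for each leukemia alone (95% interval 0.17 to 1.28 for leukemia 92 and 0.17 to 1.27 for leukemia 1), with edgeR adjusted p values of 0.059 and 0.078.

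The 8 platelet markers summed to 1.81 and 1.54 CPM in leukemia 92 and 0.934 and 7.31 CPM in leukemia 1, against 1.48 and 6.94 CPM in pro-B cells. The leukemia library with the most Rasgrp2, leukemia 1 replicate 2, also had the highest platelet and granulocyte sums. The part of these markers in the Rasgrp2 result was not tested. The genes nearest to Rasgrp2 in pattern were SNORA1 (distance 0.12), Best1 (0.145) and Pam16 (0.157). The first 2 had under 2 CPM in every library, and Pam16, a subunit of the mitochondrial import motor, ran from 11.1 to 16.8 CPM in leukemia, against 8 and 7.06 CPM in pro-B cells.

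Rasgrp3, the RASGRP protein that works downstream of the B-cell receptor, was higher in both leukemia 92 libraries than in both leukemia 1 libraries. The same held for Rasgrp4, for Rasa2 and for 25.4% of 14979 genes. Rasgrp3 stood at 31.4 and 28.5 CPM in leukemia 92 and 2.64 and 9.6 CPM in leukemia 1, against 8.81 and 10.4 CPM in pro-B cells. Both leukemia 92 libraries were above all others, leukemia 1 replicate 2 lay within the pro-B range, and leukemia 1 replicate 1 was the lowest of all. Its log2 change was 0.95 for leukemia as a whole (95% interval -1.32 to 3.22, edgeR adjusted p = 0.45). In the shared fit of 6 libraries it was 1.64 for leukemia 92 (SE 0.60, edgeR adjusted p = 0.10) and -0.65 for leukemia 1 (SE 0.60, adjusted p = 0.49). The direct difference, leukemia 92 minus leukemia 1, was 2.29 (SE 0.62, edgeR adjusted p = 0.11, unadjusted p = 0.015) and did not pass, while DESeq2 gave an adjusted p of 0.0029.

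Rasgrp4, a RASGRP gene of mast cells and neutrophils, was high in 3 of the 4 leukemia libraries. It stood at 45.9 and 47.4 CPM in leukemia 92 and 3.98 and 39.5 CPM in leukemia 1, against 8.7 and 8.11 CPM in pro-B cells. Leukemia 1 replicate 1 was below both pro-B libraries, so the groups overlap. Rasgrp4 averaged 34.2 ± 20.4 CPM over 4 leukemia libraries and 8.4 ± 0.418 CPM over 2 pro-B libraries (± SD), with a log2 change of 2.06 (SE 0.44, edgeR adjusted p = 0.048). Without leukemia 1 replicate 2 the change was 1.63 and did not pass (edgeR adjusted p = 0.41), and the call was also lost without pro-B replicate 1 or 2 (0.27 and 0.29) and in the fit over 6 libraries (0.18, and 0.25 with the replicate block). For leukemia 1 alone the change turned round with the library left out, at 2.22 without replicate 1 and -1.12 without replicate 2.

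Markers of mast cells and basophils, 9 genes, summed to 7.73 and 6.4 CPM in leukemia 92 and 2.68 and 93.6 CPM in leukemia 1, against 25.6 and 19.1 CPM in pro-B cells. Leukemia 1 replicate 2, with 93.6 CPM of these and 16200 CPM of granulocyte markers, thus had Rasgrp4 together with both. Most of the pro-B sum was Kit, at 21.8 and 15 CPM. Without Kit the other 8 markers summed to 6.49 and 5.79 CPM in leukemia 92 and 1.38 and 81.6 CPM in leukemia 1, against 3.81 and 4.09 CPM in pro-B cells. This sum was thus higher in leukemia 92 than in pro-B cells and lowest in leukemia 1 replicate 1, as Rasgrp4 was. Most of it in leukemia 92 was Hdc (4.69 and 3.41 CPM, against 1.41 and 1.52 CPM in pro-B cells). Cpa3 and Mcpt8 were also higher in leukemia 92, Ms4a2 and Cma1 were lower, and Mcpt4, Tpsb2 and Tpsab1 were at or near 0 in both. Of the 9 markers with Kit, 0 were above both pro-B libraries in all 4 leukemia libraries. The part of mast cell and granulocyte markers in the Rasgrp4 values was not tested. Exons of Rasgrp4 overlap those of Fam98c on the opposite strand over 506 bases in GENCODE M21, and the strand setting of the counts is not given. Fam98c had 24.2 and 26.1 CPM in leukemia 92 and 11.1 and 16 CPM in leukemia 1, against 12.3 and 13.8 CPM in pro-B cells. Reads of Rasgrp4 are therefore uncertain where the genes overlap.

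Fos, the ERK-responsive AP-1 gene, was among the 3 genes nearest to Rasgrp4 in pattern (distance 0.729), after Asb2 (0.454) and Itln1 (0.675). Fos stood at 982 and 816 CPM in leukemia 92 and 141 and 709 CPM in leukemia 1, against 185 and 159 CPM in pro-B cells. Asb2, a ubiquitin ligase subunit, stood at 21.0 and 19.9 CPM in leukemia 92 and 1.99 and 17.3 CPM in leukemia 1, against 2.85 and 3.04 CPM in pro-B cells. Both were lowest in leukemia 1 replicate 1, as Rasgrp4 was. They were chosen by likeness of pattern over these same libraries, so this likeness is built in. A link between Rasgrp4 and Fos was not tested.

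Scaled to exon length, the 4 RASGRP genes summed to 133 and 145 CPM per kb in leukemia 92 and 103 and 155 CPM per kb in leukemia 1, against 93.4 and 80.9 CPM per kb in pro-B cells. Every leukemia library was above both pro-B libraries. Rasgrp2 made up 87.8% and 89.0% of this sum in leukemia 92 and 98.6% and 92.9% in leukemia 1, against 87.5% and 83.3% in pro-B cells. The share of Rasgrp1 was 0.13% and 0.0983% in leukemia 92 and 0.0678% and 0.415% in leukemia 1, against 8.62% and 11.9% in pro-B cells. Rasgrp4 held 7.3% and 6.91% in leukemia 92, 0.818% and 5.41% in leukemia 1, and 1.97% and 2.12% in pro-B cells. The RASGRP transcript next to Rasgrp2 was thus Rasgrp4 in all leukemia libraries and Rasgrp1 in both pro-B libraries.

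**Figure D2:**
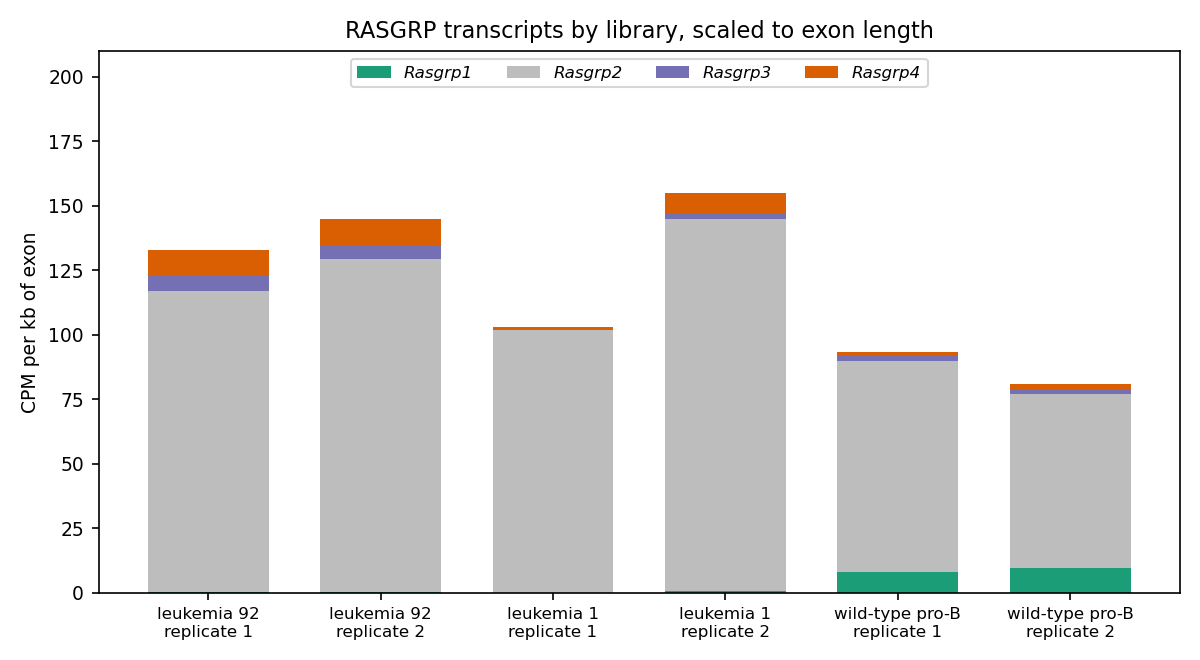
Stacked bars of Rasgrp1, Rasgrp2, Rasgrp3 and Rasgrp4 in CPM per kb of exon, 1 bar for each library, with leukemia 92, leukemia 1 and wild-type pro-B from left to right. Rasgrp2 fills most of each bar, and Rasgrp1 is a visible band in the pro-B bars, at 8.62% and 11.9%.

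Sos1 and Sos2, the exchange factors that couple receptors to RAS through GRB2, did not pass in any comparison. Sos1 stood at 49.6 and 52.5 CPM in leukemia 92 and 69.9 and 33.2 CPM in leukemia 1, against 50.6 and 50.5 CPM in pro-B cells. The pro-B values lay in the middle of the leukemia values, with a log2 change of 0.01 (95% interval -0.30 to 0.33, edgeR adjusted p = 0.94). Sos2 stood at 57.6 and 52.4 CPM in leukemia 92 and 54.6 and 39.2 CPM in leukemia 1, against 64.9 and 68.9 CPM in pro-B cells. All 4 leukemia libraries were below both pro-B libraries, by a log2 change of -0.38 (95% interval -0.83 to 0.06, edgeR adjusted p = 0.17).

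Of the GAPs among the members, none was called in leukemia against pro-B cells. Rasa2, a GAP with C2 and pleckstrin homology domains, came nearest: it stood at 126 and 106 CPM in leukemia 92 and 98.3 and 43.0 CPM in leukemia 1, against 42.4 and 41.7 CPM in pro-B cells. All 4 leukemia libraries were above both pro-B libraries, leukemia 1 replicate 2 by a small margin. The log2 change was 1.16 (95% interval 0.29 to 2.03, edgeR adjusted p = 0.076). It passed without leukemia 1 replicate 2 (edgeR adjusted p = 0.021) and with DESeq2 (0.0065). It did not pass without leukemia 1 replicate 1 (log2 change 0.95, edgeR adjusted p = 0.29). Nor did it with the replicate block (0.081) or in the fit over 6 libraries (0.077). Without pro-B replicate 1 or 2 the log2 change was 1.15 and 1.13. Leukemia 92 alone gave a change of 1.46 (SE 0.41, edgeR adjusted p = 0.051) and leukemia 1 alone 0.75 (SE 0.40, adjusted p = 0.25).

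Rasa3, a GAP for RAS and RAP1 and thus a counterpart of Rasgrp2, was the most abundant per kb of the GAPs among the members. Of all members it had the smallest coefficient of variation over the leukemia libraries (9.55%). It stood at 222 and 193 CPM in leukemia 92 and 178 and 208 CPM in leukemia 1, against 207 and 200 CPM in pro-B cells. The groups overlapped, and the log2 change was -0.01 (95% interval -0.36 to 0.34, edgeR adjusted p = 0.97). Rasa1, the p120 RAS GAP that docks on phosphorylated receptors, stood at 90.1 and 92.8 CPM in leukemia 92 and 115 and 58.4 CPM in leukemia 1, against 103 and 102 CPM in pro-B cells. Its log2 change was -0.21 (95% interval -0.55 to 0.14, edgeR adjusted p = 0.30), with 1 leukemia library above and 3 below the pro-B values.

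Nf1 stood at 47.0 and 45.6 CPM in leukemia 92 and 55.7 and 29.5 CPM in leukemia 1, against 37.5 and 36.6 CPM in pro-B cells. The change of 0.26 did not pass (95% interval -0.13 to 0.65, edgeR adjusted p = 0.25), with 3 leukemia libraries above and 1 below both pro-B libraries. The 5 GAP genes together summed to 95.8 and 86.1 CPM per kb in leukemia 92 and 87.1 and 69.9 CPM per kb in leukemia 1, against 80.0 and 78.0 CPM per kb in pro-B cells. The SOS pair summed to 16.1 and 15.6 CPM per kb in leukemia 92 and 18.0 and 10.9 CPM per kb in leukemia 1, against 17.6 and 18.3 CPM per kb. On this scale the RASGRP sum was the one whose leukemia values all lay above pro-B cells.

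Within leukemia 1 most members differed between the replicates, in both directions. Replicate 2 had 0.476 times the Sos1, 0.718 times the Sos2, 0.509 times the Rasa1, 0.437 times the Rasa2 and 0.53 times the Nf1 level of replicate 1, but 9.19 times the Rasgrp1, 3.64 times the Rasgrp3 and 9.92 times the Rasgrp4 level. Rasgrp2 and Rasa3 lay closer, at 1.41 and 1.17 times the level of replicate 1. In leukemia 92 and in pro-B cells every member had a ratio between 0.825 and 1.2. The 5 genes that were lower in leukemia 1 replicate 2 have 4.563 to 11.95 kb of exon, and Rasgrp1, Rasgrp3 and Rasgrp4 have 4.722 to 5.231 kb. Over all genes of 4 to 6 kb of exon the median log2 difference between these libraries was -0.18.

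Against pro-B cells, leukemia 92 and leukemia 1 each had 1 of the 10 members called, Rasgrp1, in both cases lower. The share of all 14979 genes called was 31.4% for leukemia 92 and 20.3% for leukemia 1. In leukemia 92 14.7% of all genes were called higher and 16.7% lower, and in leukemia 1 9.55% higher and 10.7% lower. Between the leukemias, leukemia 92 against leukemia 1, edgeR called 0 members, with 1 at an unadjusted p under 0.05 and 1 called by DESeq2, in each case Rasgrp3. Of all genes 3.09% were called, 1.82% higher and 1.27% lower. Rasgrp3, Rasgrp4 and Rasa2 were higher in both leukemia 92 libraries than in both leukemia 1 libraries, and the other 7 overlapped. Of all 14979 genes 51.3% did not overlap between the leukemias, 25.4% higher and 25.8% lower in leukemia 92. Beside these shares stand 3 of 10 members higher and 0 lower, and whether they differ was not tested. For Rasgrp2 the difference was 0.01 (95% interval -0.54 to 0.56) and for Rasa3 0.10 (-0.26 to 0.47), an interval around 0 in both cases.

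**Figure D3:**
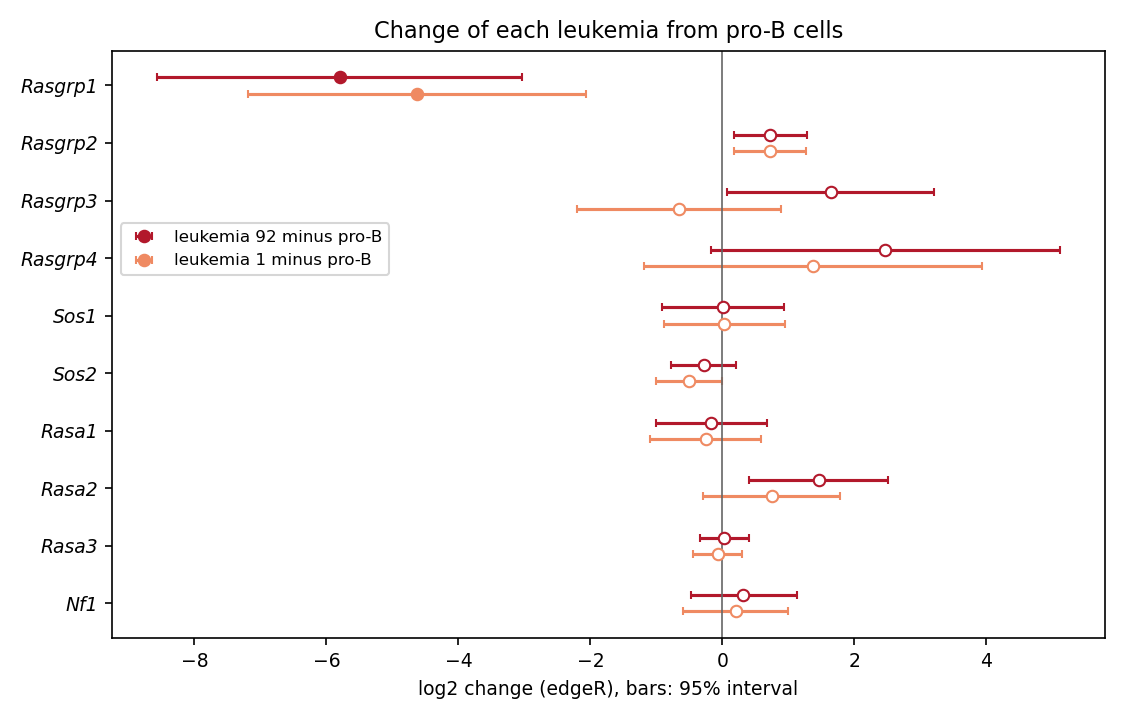
Log2 change of each leukemia from pro-B cells in the 3-group edgeR fit, leukemia 92 above leukemia 1 for each gene, with 95% intervals and filled points for an adjusted p under 0.05. Rasgrp1 has filled points at -5.80 and -4.62, while the Rasgrp3 points lie on either side of 0, at 1.64 and -0.65.

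Around these regulators, 6 lists of pathway genes were counted in leukemia against pro-B cells. Beside each count stands the share over all 15280 tested genes, of which 20.2% were called, 9.54% higher and 10.7% lower. Whether any list differs from that share was not tested. Of the 6 RAS GTPases 1 rose and 5 did not pass (median log2 change 0.08). Nras, the normal counterpart of the retroviral N-RasG12D, stood at 521 and 543 CPM in leukemia 92 and 371 and 343 CPM in leukemia 1, against 157 and 156 CPM in pro-B cells (log2 change 1.52, SE 0.26, edgeR adjusted p = 0.032). Whether its reads include those of the vector was not tested. Hras1 (0.13) and Rras (0.34) had small log2 changes, and the relatives Rras2 (-1.86, adjusted p = 0.12) and Mras (-3.58, adjusted p = 0.15) did not pass. Rras2 stood at 6 and 8.32 CPM in leukemia 92 and 39.3 and 14.8 CPM in leukemia 1, against 64.6 and 56.1 CPM in pro-B cells. Without leukemia 1 replicate 1 Rras2 passed as lower (log2 change -2.45, edgeR adjusted p = 0.043) and Mras did not (-2.70, 0.33). Without replicate 2 Mras passed (-7.49, edgeR adjusted p = 0.0081) and Rras2 did not (-1.42, 0.31). In the 3-group fit both were called lower in leukemia 92 (Rras2 -3.08, edgeR adjusted p = 0.015, and Mras -7.44, 0.044). In leukemia 1 they were not (-1.16, edgeR adjusted p = 0.16, and -2.67, 0.24).

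Of 11 other exchange factors for RAS-family GTPases, 2 rose, 1 fell and 8 did not pass (median log2 change 0.51). Without leukemia 1 replicate 1 the numbers were 0 and 1, and without replicate 2 they were 1 and 1. Rapgef5, a RAP exchange factor, rose to 130 ± 50.4 CPM in leukemia, against 16.2 ± 0.645 CPM in pro-B cells (log2 change 3.01, edgeR adjusted p = 0.014, and 0.059 without leukemia 1 replicate 1). Ralgds, a RAL exchange factor that RAS binds as an effector, rose by a log2 change of 1.81 (edgeR adjusted p = 0.044), with a value of 125 CPM in leukemia 1 replicate 1 and 28.1 to 38.2 CPM in the other leukemia libraries, and lost its call without leukemia 1 replicate 1 or 2 (0.061 and 0.081). Rasgrf1, the calcium-responsive RAS exchange factor of neurons, was barely detected: it stood at 0 and 0.0934 CPM in leukemia 92 and 0.0813 and 0 CPM in leukemia 1, against 0.925 and 1.01 CPM in pro-B cells (log2 change -4.45, edgeR adjusted p = 0.016).

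Of 11 further GAPs and their partners 3 rose and 8 did not pass (median log2 change 0.78), with 0 called without leukemia 1 replicate 1 and 4 higher and 1 lower without replicate 2. Spred1, which binds neurofibromin and brings it to the membrane, rose to 317 ± 144 CPM in leukemia, against 45.8 ± 1.38 CPM in pro-B cells (log2 change 2.79, SE 0.17, edgeR adjusted p = 0.0084). Spred2, its relative, rose to 71.3 ± 27.8 CPM, against 27.2 ± 0.754 CPM (log2 change 1.39, SE 0.12, edgeR adjusted p = 0.013). Their adjusted p values were 0.071 and 0.13 without leukemia 1 replicate 1. The third was Rasa4, a GAP of the same family as Rasa2 and Rasa3, named after its values were seen: it stood at 222 and 195 CPM in leukemia 92 and 134 and 124 CPM in leukemia 1, against 59.8 and 54.1 CPM in pro-B cells (log2 change 1.59, SE 0.31, edgeR adjusted p = 0.04). Without leukemia 1 replicate 1 its adjusted p was 0.056. Nf1 itself did not pass while both of these partners rose, but the difference between Nf1 and its partners was not tested.

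Among 20 adaptors upstream of SOS and RASA1, 4 rose, 2 fell and 14 did not pass (median log2 change 0.07). Those that rose numbered 3 without leukemia 1 replicate 1 and 2 without replicate 2, and those that fell 1 and 2. Sh2b3, an adaptor that restrains cytokine receptors, rose by a log2 change of 2.04 (edgeR adjusted p = 0.024, and 0.063 without leukemia 1 replicate 1), and Dok1, a docking protein for RASA1, by 1.15 (0.044, and 0.085 without leukemia 1 replicate 1). Lat, the T cell adaptor that gathers GRB2, SOS and phospholipase C, fell to 3.18 ± 2.12 CPM in leukemia, against 27.3 ± 0.561 CPM in pro-B cells (log2 change -3.09, SE 0.41, edgeR adjusted p = 0.021). Its adjusted p was 0.068 when leukemia 1 replicate 1 was left out. Lat is also in the T cell marker list, of whose 12 genes 7, Lat included, were lower and 2, Cd5 and Cd6, higher in all 4 leukemia libraries. Cblb, a ubiquitin ligase that limits receptor signalling, fell, with a log2 change of -0.99 and an edgeR adjusted p of 0.019.

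Genes that make, sense or remove diacylglycerol, the lipid that recruits RASGRP proteins, moved both ways: of 18 tested (of 19 listed), 4 rose, 4 fell and 10 did not pass (median log2 change 0.03). Over all genes 9.54% were called higher and 10.7% lower. The numbers were 3 and 3 without leukemia 1 replicate 1, and 1 and 4 without replicate 2. Plcg2, the phospholipase that makes diacylglycerol behind the B-cell receptor, rose to 871 ± 210 CPM in leukemia, against 335 ± 1.34 CPM in pro-B cells (log2 change 1.39, edgeR adjusted p = 0.039, and 0.062 without leukemia 1 replicate 1). Dgkg, a kinase that removes diacylglycerol, rose by a log2 change of 3.51 to 5.28 ± 3 CPM, against 0.474 ± 0.0633 CPM (adjusted p = 0.041, and 0.085 without leukemia 1 replicate 2). The 4 that fell were protein kinases C that respond to the same lipid, Prkca, Prkcb, Prkch and Prkcq. Of these, Prkcb (log2 change -2.01) and Prkch (-3.44) are named after their values were seen. Prkch had an edgeR adjusted p of 0.037, and 0.12 without leukemia 1 replicate 1. The relatives Prkcd (0.05, edgeR adjusted p = 0.9) and Prkce (-0.15, 0.44) did not pass. Prkd2, another kinase of this list named after its values were seen, was called higher (log2 change 1.34, edgeR adjusted p = 0.044, and 0.11 without leukemia 1 replicate 2). Prkca fell to 6.27 ± 1.63 CPM in leukemia, against 129 ± 12.1 CPM in pro-B cells (log2 change -4.35, SE 0.15, adjusted p = 0.0065). Prkcq, the protein kinase C of T cells, fell to 0.739 ± 0.524 CPM, against 27.9 ± 0.966 CPM (log2 change -5.21, SE 0.22, adjusted p = 0.0065). The NK cell sum was lower in the same libraries, at 3.98 to 33.8 CPM in leukemia, against 440 and 418 CPM in pro-B cells, and its part in the Prkcq result was not tested.

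In the RAP1 cycle, on which Rasgrp2 and Rasa3 act, 2 of 10 genes rose, 1 fell and 7 did not pass (median log2 change 0.22). The numbers were 2 and 1 without leukemia 1 replicate 1, and 1 and 1 without replicate 2. Rap1b, a gene for the RAP1 GTPase, rose to 566 ± 96.8 CPM in leukemia, against 294 ± 9.99 CPM in pro-B cells. Its log2 change was 0.95 (edgeR adjusted p = 0.018, and 0.058 without leukemia 1 replicate 1). Rap1a, the other RAP1 gene of this list, named after its values were seen, did not pass (log2 change -0.11, edgeR adjusted p = 0.69). Rap1gap2 rose by a log2 change of 1.31 (adjusted p = 0.025, and 0.094 without leukemia 1 replicate 2), while Sipa1l1, another RAP GAP, fell (log2 change -1.62, edgeR adjusted p of 0.019).

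**Figure D4:**
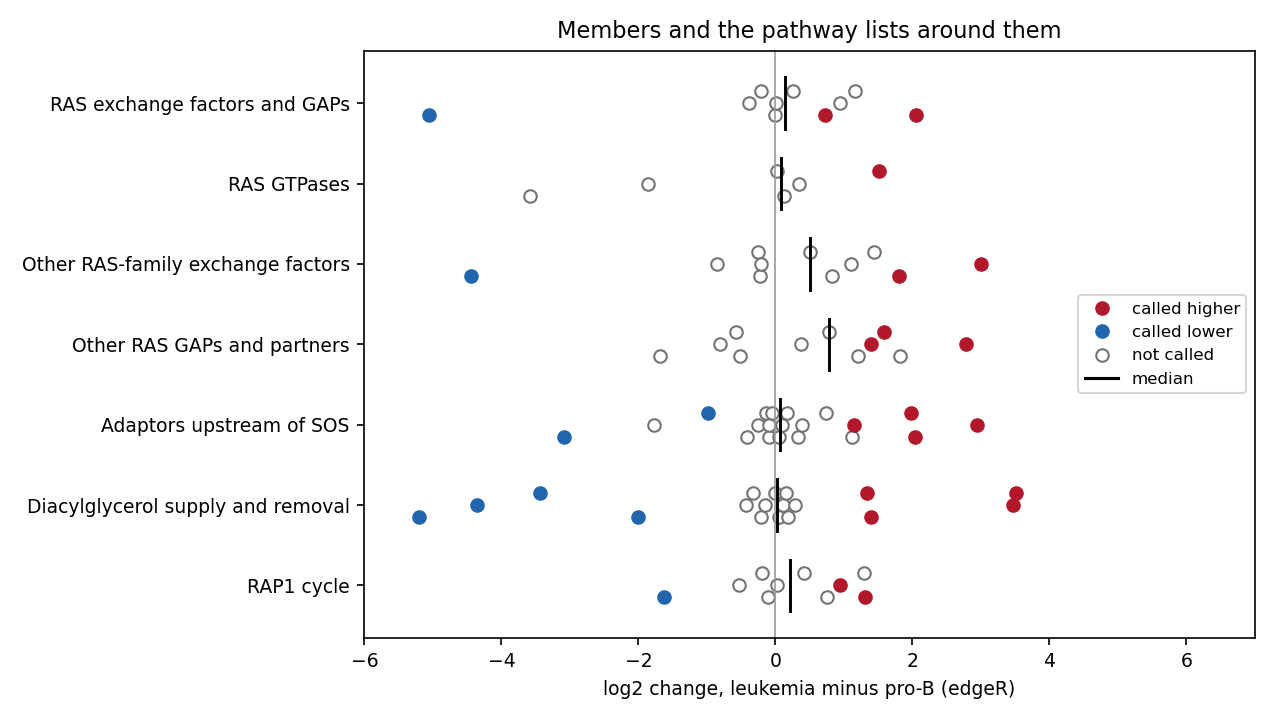
Log2 change of leukemia from pro-B cells for the 10 members and the 6 pathway lists, 1 point for each gene, filled red or blue where called higher or lower at an edgeR adjusted p under 0.05, with a line at the median of each list. The medians lie between 0.03 and 0.78, and the diacylglycerol list has 4 genes called on each side.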

How the data were processed

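The authors deposited 1 table of raw counts, whole-number reads per gene for 6 libraries. RNA was prepared with RNeasy and TruSeq RNA kits, per the labels' protocols. Per the submitters' processing notes, the tools were STAR 2.4, HTSeq 0.6.1 and DESeq2 and the build mm9, with no role or order. Gene annotation and strandedness of counting: not given in the sources used here. Entries that name no gene held 34.0% to 39.6% of a library and were left out.

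Leukemia against pro-B cells was tested on counts summed per leukemia, because labels place 2 libraries under each leukemia, and the other comparisons in 1 fit of 3 groups. Both used edgeR 4.0.16 (R 4.3.3, limma 3.58.1; filterByExpr minimum count 10, TMM, robust quasi-likelihood F test, Benjamini-Hochberg over all genes). DESeq2 1.42.0 was an alternative. SEs were taken from F statistics, and the 95% intervals are unadjusted. CPM used TMM factors over 6 libraries. Exon lengths are unions over GENCODE M21 (GRCm38), an approximation of the authors' gene models. The steps were tested on simulated data.

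Members and lists were chosen with earlier results of these data known. Named were all members, the RAS GTPases except 1 result that is not reported here, up to 2 called genes with the smallest p in each direction of each list, and the 3 genes nearest in pattern to each called member. Same-numbered libraries did not deviate together (correlations of -0.161, 0.0612 and -0.0336).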

Additional observations from a re-analysis of the deposited data

Results flagged for a closer look

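Leukemia 92 and leukemia 1 differed in their change from pro-B cells, by the direct test of leukemia 92 minus leukemia 1, in 3 genes of the pathway lists, named after their values were seen. They were 1 of 11 other exchange factors, 1 of 11 further GAPs and partners and 1 of 20 adaptors, with 0 called in the other lists. Of all 14979 genes 3.09% were called in this comparison, 1.82% higher and 1.27% lower. Whether the lists differ from that share was not tested. Rgl1, a RAL exchange factor that RAS binds, was lower in leukemia 92: it stood at 118 and 132 CPM in leukemia 92 and 296 and 313 CPM in leukemia 1, against 79.6 and 78.3 CPM in pro-B cells (log2 difference -1.29, SE 0.12, edgeR adjusted p = 0.027). Rasal3, a RAS GAP of blood cells, was higher in leukemia 92, at 203 and 214 CPM against 102 and 109 CPM in leukemia 1 (log2 difference 0.98, SE 0.12, edgeR adjusted p = 0.033), with 127 and 118 CPM in pro-B cells between them. Dok2, a docking protein that recruits RASA1, was higher in leukemia 92, at 271 and 266 CPM against 73.5 and 106 CPM in leukemia 1 and 23.3 and 24.1 CPM in pro-B cells (log2 difference 1.58, SE 0.20, edgeR adjusted p = 0.039). In this comparison edgeR called 0 of all genes when 1 library of leukemia 92 or of pro-B cells was left out (1552 to 2303 at an unadjusted p under 0.05), and also 0 with the replicate block (3042), while DESeq2 called 2667 over all 6 libraries.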

How the results depend on the processing

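In leukemia against pro-B cells 3 members were called. With 1 library left out the number ran from 0 (either pro-B library) to 3, it was 1 in the fit over libraries with the replicate block, and 7 without both libraries of leukemia 1 or of leukemia 92, where the spread comes from the pro-B pair alone. In leukemia 92 against pro-B cells 1 member was called, 0 to 8 with 1 library left out and 5 with DESeq2. In leukemia 1 against pro-B cells it was 1, with 0 to 8, 2 with DESeq2 and 0 with the replicate block. In leukemia 92 against leukemia 1 it was 0, with 0 to 7 and 1 with DESeq2. The high ends of the last 3 ranges arise without a leukemia 1 library. The cause of these shifts was not tested. The replicate block left 3373 genes called in leukemia against pro-B cells, against 4712 in the same fit without it, and 0 between the leukemias (3042 at an unadjusted p under 0.05), against 463 by edgeR and 2667 by DESeq2 without it. With leukemia 92 numbers exchanged, added after seeing the data, edgeR also called 0 (3074 at an unadjusted p under 0.05).

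Some changes turned sign: in leukemia against pro-B cells Rasa3 to 0.01 without the filter and 0.06 without both leukemia 1 libraries, Rasgrp3 to -0.65 without both leukemia 92 libraries, and Sos1 to -0.01 with the replicate block and -0.03 without both leukemia 92 libraries. Without the filter Rasa3 was at -0.01 and Sos1 at -0.03 in leukemia 92, and Sos1 at -0.02 in leukemia 1. With the replicate block Sos1 was at -0.03 in leukemia 1 and 0.05 between the leukemias. Over the fits that leave out 1 library, signs turned within these ranges. In leukemia against pro-B cells Rasa1 ran from -0.43 to 0.0008, Rasa3 from -0.07 to 0.06 and Sos1 from -0.24 to 0.25. In leukemia 92 Rasa3 ran from -0.12 to 0.09 and Sos1 from -0.07 to 0.01. In leukemia 1 Nf1 ran from -0.34 to 0.54, Rasa1 from -0.82 to 0.12, Rasa3 from -0.23 to 0.02, Rasgrp4 from -1.12 to 2.22 and Sos1 from -0.61 to 0.42. Between the leukemias Nf1 ran from -0.26 to 0.66, Rasa1 from -0.32 to 0.66, Rasgrp1 from -2.00 to 1.17, Rasgrp2 from -0.21 to 0.28 and Sos1 from -0.45 to 0.63.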
